A study of Mus musculus with 9 samples.

Results

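Long noncoding RNAs expressed in ST2 cells, a mouse bone marrow stromal line labelled as mesenchymal stem cells, were followed through Wnt stimulation and its combination with an inhibitor of O-GlcNAc transferase. The members were the genes of the deposited table with the biotype lincRNA or antisense and a mean of at least 1 CPM (counts scaled to equal library totals) over all 9 libraries. There were 361 of them (202 lincRNA and 159 antisense genes) among 8385 genes with these biotypes and 54532 genes in all, and no gene carried the biotype lncRNA. They were chosen by this mean level, which is therefore given below as a description. The lowest of those kept were Gm43150, Gm19710 and C920021L13Rik, with a mean of 1.02, 1.02 and 1.004 CPM, and the highest of those left out were A930024E05Rik, 1700055D18Rik and Gm37876, each with 0.997 CPM.

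The study asked how protein O-GlcNAcylation takes part in Wnt-stimulated osteoblast formation. Wild-type ST2 cells were kept for 72 h with vehicle (Veh), with recombinant human Wnt3a at 50 ng/ml (rhWnt3a), or, by the titles, with rhWnt3a and OSMI, an inhibitor of O-GlcNAc transferase, at 20 µM (rhWnt3aOSMI), with 3 libraries per group. The treatment label of the third group names OSMI without rhWnt3a, so its identity rests on the titles and on the results section of the study. No group is titled OSMI alone, and all cells came from a single established line. Of the stromal markers, Col1a1, Col1a2, Col3a1, Pdgfra, Pdgfrb, Cxcl12, Vcam1, Ly6a and Runx2 were present in every library, while Thy1 had 0 to 4 counts and Eng 11 to 49. Markers of blood cells, endothelium and epithelium had 0 to 7 counts.

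Long noncoding RNAs are transcripts without a long open reading frame. Some act as RNA in the nucleus (Xist coats the inactive X chromosome, Neat1 is the scaffold of paraspeckles, Malat1 lies in nuclear speckles), some are carriers from whose introns or exons small RNAs are cut, and many are read from the opposite strand or the divergent promoter of a coding gene. Wnt ligands act mainly through β-catenin and TCF/LEF factors, and in marrow stromal cells they favour the osteoblast lineage. O-GlcNAc transferase attaches a sugar to serine and threonine residues of nuclear and cytoplasmic proteins, RNA polymerase II among them.

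Dnm3os, a carrier RNA read within Dnm3 from the opposite strand (chr1:162217623-162225550, plus strand, GRCm38), is shown through the small RNAs it holds because its level fell in the third group. It carries 2 microRNA hairpins, and their 4 mature products from RefSeq (GRCm38.p6) are printed below with the seed, bases 2 to 8, in capitals. No pair of the 4 shares a seed.
mmu-miR-199a-5p: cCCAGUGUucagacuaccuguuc
mmu-miR-199a-3p: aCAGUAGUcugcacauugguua
mmu-miR-214-5p: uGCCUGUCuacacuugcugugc
mmu-miR-214-3p: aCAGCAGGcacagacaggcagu

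RefSeq held a promoter window, 250 bases before to 50 bases after a transcript start, for 164 of the 361 members (186 windows). The 5 windows below were chosen to show the range of CpG content among members whose level moved: A830082K12Rik rose with rhWnt3a, Gm567 and AU020206 fell with it, and Snhg18 and Gm17586 differed between rhWnt3aOSMI and rhWnt3a and lie head-to-head with Sema5a and Mafg. CpG dinucleotides are in capitals.
A830082K12Rik, chr13:78197767-78198066, plus strand: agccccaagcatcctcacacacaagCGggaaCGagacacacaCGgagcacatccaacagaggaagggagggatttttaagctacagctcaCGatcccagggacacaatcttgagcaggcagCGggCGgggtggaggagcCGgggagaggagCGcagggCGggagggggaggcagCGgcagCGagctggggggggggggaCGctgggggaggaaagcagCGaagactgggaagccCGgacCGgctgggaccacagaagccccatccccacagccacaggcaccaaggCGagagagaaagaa
Gm567, chr3:137289367-137289666, plus strand: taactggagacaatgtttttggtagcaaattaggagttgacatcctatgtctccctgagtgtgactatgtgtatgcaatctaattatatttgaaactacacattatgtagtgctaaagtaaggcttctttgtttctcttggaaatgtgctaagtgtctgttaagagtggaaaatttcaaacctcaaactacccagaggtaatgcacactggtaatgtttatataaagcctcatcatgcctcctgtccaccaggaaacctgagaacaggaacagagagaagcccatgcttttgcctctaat
AU020206, chr7:75782071-75782370, minus strand: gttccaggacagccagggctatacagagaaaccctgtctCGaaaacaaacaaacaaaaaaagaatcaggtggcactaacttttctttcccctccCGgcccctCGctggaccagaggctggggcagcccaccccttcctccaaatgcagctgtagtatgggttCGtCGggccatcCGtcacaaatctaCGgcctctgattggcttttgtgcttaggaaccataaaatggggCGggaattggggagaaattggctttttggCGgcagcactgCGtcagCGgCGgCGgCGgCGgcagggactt
Snhg18, chr15:32244613-32244912, minus strand: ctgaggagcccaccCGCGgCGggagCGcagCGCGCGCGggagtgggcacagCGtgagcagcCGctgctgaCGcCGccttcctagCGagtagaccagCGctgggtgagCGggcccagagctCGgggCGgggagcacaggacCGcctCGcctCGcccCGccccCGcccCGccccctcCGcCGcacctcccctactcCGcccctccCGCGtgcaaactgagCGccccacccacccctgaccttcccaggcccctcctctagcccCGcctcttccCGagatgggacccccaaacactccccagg
Gm17586, chr11:120633500-120633799, plus strand: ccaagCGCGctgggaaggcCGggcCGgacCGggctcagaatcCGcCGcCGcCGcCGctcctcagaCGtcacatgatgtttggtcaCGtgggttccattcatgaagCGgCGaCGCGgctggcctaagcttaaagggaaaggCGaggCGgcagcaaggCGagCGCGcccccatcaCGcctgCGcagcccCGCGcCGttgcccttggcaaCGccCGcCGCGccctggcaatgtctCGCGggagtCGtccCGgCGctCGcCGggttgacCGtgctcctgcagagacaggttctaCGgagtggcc

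The Gm567 window held 0 CpG, as did 5.4% of the 32851 windows of the table, whereas those of A830082K12Rik and AU020206 held 16 and 15. Those of Snhg18 and Gm17586 held 31 and 39, and their coding neighbours start within the same window, 148 and 168 bases away on the opposite strand. The median was 12 CpG over the 186 member windows and 7 over all windows. It was 25 for members head-to-head with a coding gene, 8 for those overlapping one in antisense and 8 for intergenic members. The TCF/LEF core CTTTGAT, searched on both strands (ATCAAAG on the other), was in 5 of the 186 member windows (2.69%) and in 3.73% of all windows. None of the 3 raised and 3 lowered members with a window in the comparison of rhWnt3a with Veh had these letters in it. With so few windows and the motif in 3.73% of all windows, no hit was the likely outcome, so nothing is concluded from it.

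By the deposited coordinates, 126 members overlapped a protein-coding gene on the other strand, 97 started within 1000 bases of a coding gene read the other way (head-to-head), 12 overlapped one on the same strand and 126 were intergenic. Members had a median of 3 exons and 53 had 1. The protocol shows no step that marks the strand, so reads from a member and from an overlapping gene cannot be told apart. Of the 361 members, 205 shared exonic bases with another gene and 64 shared over 25% of them. A further limit was sequence copies, since 23 members were near-identical to other genes over more than 10% of their length, among them 2900097C17Rik, the mouse counterpart of NORAD (51.6%).

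Most members were rare and a few were abundant. The median of their mean levels was 2.43 CPM, 271 lay below 5 CPM, 43 reached 10 CPM and 7 reached 100 CPM. Xist, Malat1 and Neat1, with means of 1747, 1521 and 790 CPM, held 62.0% of all member counts, and Gm26917 and 2900097C17Rik followed with 242 and 240.0 CPM. Per length, the order at the top differed: Malat1 had a mean of 213 FPKM, Xist 95.8, Gm26917 71.4, 2900097C17Rik 48.0 and Neat1 37.4. Gm26917 ends 12 bases before Rn18s-rs5, a RefSeq gene related to 18S ribosomal RNA on chromosome 17. The part of ribosomal RNA in its counts was not tested.

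Library totals ran from 16135898 to 17583945 counts, so that 3 counts, taken as the floor of detection, were 0.171 to 0.186 CPM, and such floors cover counting error only. Veh replicate 3, rhWnt3a replicate 2 and rhWnt3aOSMI replicate 3 each stood apart from the other libraries of their group, along an axis that held 54.8% of the variance within groups over all tested genes. They did so in opposite directions: the first 2 lay at 0.49 and 0.49, while rhWnt3aOSMI replicate 3 lay at -0.43 and the other OSMI replicates at 0.22 and 0.21. The other Veh and rhWnt3a libraries lay between -0.28 and -0.21. These scores were taken from each group's own mean, so they do not place libraries of different groups against each other. Leaving out the 3 libraries sets OSMI libraries on the positive side of their group's mean against Veh and rhWnt3a libraries on the negative side of theirs. Whether this mixes treatment with the axis cannot be told from these scores. The members moved with the axis. They took 0.586%, 0.555% and 0.394% of all counts in the 3 Veh libraries, 0.734%, 0.482% and 0.691% with rhWnt3a, and 0.776%, 0.810% and 0.853% in rhWnt3aOSMI. Veh replicate 3 and rhWnt3a replicate 2 were thus the lowest of their groups, and the share in every rhWnt3aOSMI library exceeded that in all others. Without Xist, Malat1 and Neat1 the share was 0.211% to 0.238% in Veh and 0.248% to 0.273% in the treated libraries. Every Veh library was thus below every treated library.

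**Figure D1:**
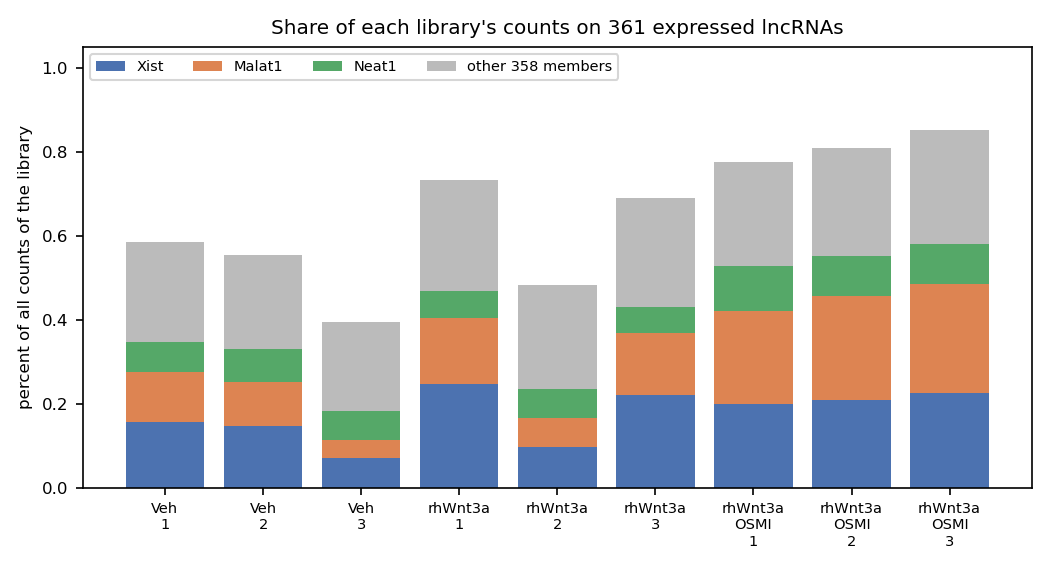
Percent of each library's counts on the 361 members, split into Xist, Malat1, Neat1 and the other 358, for 3 libraries each of Veh, rhWnt3a and rhWnt3aOSMI. The other 358 take 0.211% to 0.238% in Veh and slightly more, 0.248% to 0.273%, in the treated libraries. The height differs mainly through Xist and Malat1, which are low in Veh replicate 3 and rhWnt3a replicate 2.

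All 361 members passed the filter on low counts and were tested among 14004 genes in a single edgeR quasi-likelihood fit of the 9 libraries. A call was an adjusted p under 0.05 (Benjamini-Hochberg over all tested genes) with a log2 fold change beyond 0.5. Of the members, 76 were below 1 CPM in at least 1 group (42 in Veh, 25 in rhWnt3a and 20 in rhWnt3aOSMI) and so were kept through the groups where they were higher. Called members among them include Gm26682, Gm26762, Gm12022 and 3010003L21Rik, below it in Veh, and Gm567 and A530020G20Rik, below it with rhWnt3a. They also include Gm20735 and A830019P07Rik, below it in rhWnt3aOSMI. Fold changes below are log2 values with their standard error. With 3 libraries against 3 an exact permutation of a single gene cannot give a p below 0.1, and the calls borrow their estimate of spread from all tested genes, so the p-values measure the spread between libraries only.

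The comparison of rhWnt3a with Veh asks which of these RNAs answer Wnt stimulation. A830082K12Rik, Gm17173 and AC154782.1 rose 2.85-fold to 3.26-fold, Gm26682 rose from almost no counts, and Gm567 and A530020G20Rik had the largest falls among called members. In all, 20 of the 361 were called (5.54%), 11 higher and 9 lower, where 8.78% of all tested genes were called, 2.92% higher and 5.86% lower. Of protein-coding genes 9.76% were called. The 2 groups' libraries did not overlap for 79 members (21.9%), against 26.4% of all tested genes. The median log2 fold change was 0.09 over the members and 0.04 over all tested genes. Intergenic members made up 14 of the 20 calls (14 of 126, 11.1%), while 3 of 97 head-to-head and 3 of 126 antisense-overlapping members and 0 of 12 overlapping on the same strand were called. This is a description without a test, and the shares lay closer in the other comparisons: 3.17% intergenic, 4.12% head-to-head and 3.17% antisense-overlapping for rhWnt3aOSMI against rhWnt3a, and 11.1%, 7.22% and 7.94% against Veh.

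Of the RNAs that rose, Gm26682 was almost absent from vehicle-treated cells. This intergenic gene on chromosome 18, 43581 bases from Svil, had 3, 0 and 3 counts in Veh, 60, 76 and 53 with rhWnt3a, and 45, 68 and 62 in rhWnt3aOSMI. The Veh libraries were at or below the floor and all 6 others far above it. The ratio of summed counts per total was 31.1 for rhWnt3a against Veh (exact 95% counting interval 14 to 85.8; edgeR adjusted p = 0.000257). The interval covers counting error only, not the spread between libraries. Gm26682 was among the members kept through the groups where they were higher. Svil, which codes for the actin-binding protein supervillin, was also called higher (log2 fold change 1.29, adjusted p = 0.02).

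A830082K12Rik starts beside Nr2f1, the gene of an orphan nuclear receptor, and overlaps it in antisense by 1741 bases, 5.75% of its exonic bases being shared with Nr2f1 and Gm46387. Its counts were 75, 58 and 86 in Veh, 191, 237 and 227 with rhWnt3a, and 111, 156 and 120 in rhWnt3aOSMI. The 3 groups did not overlap, with the third in between. The rise with rhWnt3a was 1.55 ± 0.19 (SE; adjusted p = 0.000631). Nr2f1 had 321 to 337 counts in Veh and 991 to 1026 with rhWnt3a, a log2 fold change of 1.59.

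AC154782.1 (chr16:72226383-72234327), an intergenic gene of 5 exons at a distance of 73979 bases from the axon guidance receptor gene Robo1, had 52, 70 and 76 counts in Veh and 163, 247 and 169 with rhWnt3a. Every rhWnt3a library was above every Veh library, and the log2 fold change was 1.51 ± 0.25 (adjusted p = 0.00402). Robo1 itself was not called (log2 fold change -0.50, adjusted p = 0.431). Gm17173, antisense to the prostaglandin E2 receptor gene Ptger2, had 33, 34 and 30 counts in Veh and 125, 76 and 122 with rhWnt3a, without overlap (1.71 ± 0.28, adjusted p = 0.0036). Ptger2 had at most 12 counts in any library and was not tested.

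The other called rises were smaller. Emx2os, which shares the promoter region of the homeobox gene Emx2 with starts 263 bases apart, had 168, 160 and 157 counts in Veh and 297, 240 and 242 with rhWnt3a (0.65 ± 0.15, adjusted p = 0.0254), and Emx2 had 0.65 with an adjusted p of 0.0599. Gm26762 lies within Gpi1, the glycolytic glucose-6-phosphate isomerase, on the other strand, and shares 14.02% of its exonic bases. It had 7, 15 and 16 counts in Veh and 37, 39 and 26 with rhWnt3a (1.39 ± 0.34, adjusted p = 0.0314), and Gpi1 was called higher too (adjusted p = 0.0014). Gm32618, Gm32856, Gm26809, Gm26917 and Tmem250-ps made up the rest, with 0.50 to 1.01.

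Gm567, which was below 1 CPM with rhWnt3a and was kept through the other groups, fell most clearly. This short intergenic RNA (469 bases in 3 exons, chr3:137289639-137300708) had 121, 118 and 88 counts in Veh, 10, 21 and 14 with rhWnt3a, and 16, 43 and 40 in rhWnt3aOSMI. Both treated groups were below all Veh libraries, at -2.90 ± 0.39 (adjusted p = 0.00128) for rhWnt3a against Veh. Its nearest coding gene, Emcn, 40359 bases away and coding for endomucin, had 19, 34 and 22 counts in Veh and was listed at 0 in all rhWnt3a libraries.

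A530020G20Rik, head-to-head with the choline transporter-like gene Slc44a3, had 67, 71 and 19 counts in Veh, 7, 6 and 2 with rhWnt3a, and 2, 4 and 8 in rhWnt3aOSMI. The treated libraries did not reach the lowest Veh library, and the log2 fold change was -3.41 ± 0.66 (adjusted p = 0.00917). Slc44a3, with 20 to 33 counts in Veh and 6 or 7 with rhWnt3a, was also called lower. 8430436N08Rik had 101, 75 and 94 counts in Veh and 37, 41 and 40 with rhWnt3a (-1.22 ± 0.22, adjusted p = 0.00734), and its distant neighbour Tox, a gene of a nuclear HMG-box protein, fell by 2.45.

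Gm28875, a single-exon gene 3244 bases from Syne3, had 164, 136 and 202 counts in Veh, 70, 88 and 61 with rhWnt3a, and 135, 148 and 216 in rhWnt3aOSMI. Only the rhWnt3a libraries were low, at -1.22 ± 0.22 against Veh (adjusted p = 0.00718). AU020206 had 771, 649 and 529 counts in Veh and 303, 296 and 321 with rhWnt3a (-1.12 ± 0.27, adjusted p = 0.0293). Bvht (Braveheart), known from cardiac commitment, had 197, 185 and 141 counts in Veh and 91, 95 and 96 with rhWnt3a (-0.93 ± 0.20, adjusted p = 0.0173). Carmn, which lies beside it on chromosome 18, had 97, 70 and 28 counts in Veh and 33, 14 and 24 with rhWnt3a, groups that overlapped, and missed the threshold (-1.49 ± 0.48, adjusted p = 0.0976). D930007P13Rik, Gm13375 and Gm26532 completed the falls, at -1.70, -0.94 and -0.69.

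In the 9 fits that each left out 1 library, the number called ran from 9 to 25, and 8 of the 20 calls held in all 9: A830082K12Rik, Gm17173, AC154782.1, Gm26682, Gm567, A530020G20Rik, 8430436N08Rik and Gm28875. The fewest, 9, came without Veh replicate 2, rhWnt3a replicate 1 or rhWnt3a replicate 3, and 10 came without Veh replicate 1. Over the 9 fits the adjusted p of Bvht, AU020206 and Emx2os reached 0.0885, 0.131 and 0.0978. Without the 3 libraries that stood apart, 68 members were called.

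**Figure D2:**
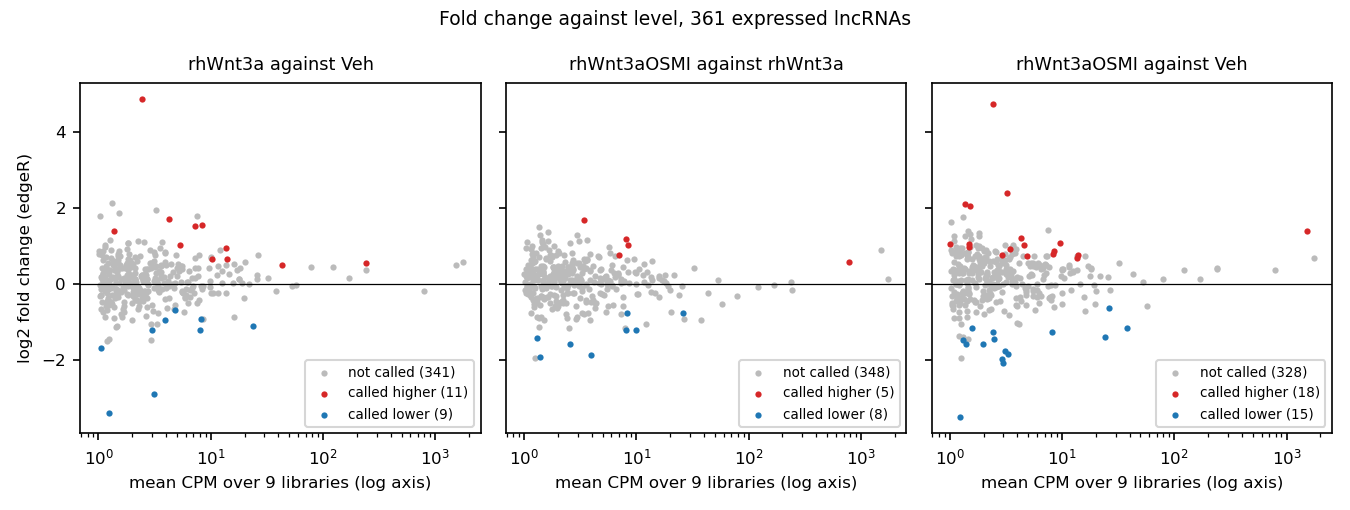
Log2 fold change (edgeR) of the 361 members against their mean CPM on a log axis, in 3 comparisons, with members called higher in red, called lower in blue and the others in grey. Calls number 20, 13 and 33 from left to right, and most lie between 1 and 50 CPM, while Neat1 (middle) and Malat1 (right) are called at the high end.

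The comparison of rhWnt3aOSMI with rhWnt3a asks what the inhibitor adds. Snhg18, Gm11110, E330013P04Rik, Brip1os and Zfp469 were lower with OSMI, and Neat1, Gm17586, Gm44710 and Gm28875 were higher. Of the 361 members 13 were called (3.60%), 5 higher and 8 lower, where 4.74% of all tested genes were called, 1.69% higher and 3.05% lower, and 5.17% of protein-coding genes. Libraries of the 2 groups did not overlap for 95 members (26.3%), against 33.7% of all tested genes. The median log2 fold change was 0.10 over the members and -0.01 over all tested genes.

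A pair of RNAs called with rhWnt3a were called in the opposite direction here, and both comparisons share the rhWnt3a libraries. A830082K12Rik fell by 0.77 ± 0.18 (adjusted p = 0.0408), and Nr2f1, with 585 to 895 counts in rhWnt3aOSMI, had -0.49 without a call. Gm28875 rose by 1.18 ± 0.22 (adjusted p = 0.0188), and in rhWnt3aOSMI against Veh it had -0.04.

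Brip1os starts 177 bases from Brip1, a DNA repair helicase gene, on the other strand, and shares 20.2% of its exonic bases with Ints2 and Med13. It had 504, 442 and 485 counts in Veh, 522, 544 and 518 with rhWnt3a, and 294, 352 and 298 in rhWnt3aOSMI. The 3 OSMI libraries were below all 6 others, at -0.76 ± 0.12 against rhWnt3a (adjusted p = 0.00944) and -0.64 ± 0.12 against Veh (adjusted p = 0.00661). Neither Brip1 nor Ints2 was called in any of the 3 comparisons.

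Snhg18, the host of a small nucleolar RNA, head-to-head with the semaphorin gene Sema5a, had 175, 141 and 134 counts in Veh, 182, 321 and 245 with rhWnt3a, and 124, 123 and 73 in rhWnt3aOSMI. The OSMI libraries were below all rhWnt3a libraries. Replicates 1 and 2 were close to the lowest Veh library, and replicate 3 was well below it. The log2 fold change was -1.23 ± 0.26 from rhWnt3a (adjusted p = 0.0296) and -0.53 ± 0.26 from Veh, without a call (adjusted p = 0.202). Sema5a had 871 to 1811 counts with rhWnt3a and 2568 to 3720 in rhWnt3aOSMI, without a call (1.04, adjusted p = 0.0954). Gm11110, head-to-head with Tnfsf9, the gene of the 4-1BB ligand, had 66, 97 and 56 counts with rhWnt3a and 32, 19 and 22 in rhWnt3aOSMI (-1.58 ± 0.32, adjusted p = 0.0229). Tnfsf9 had 150 to 249 counts with rhWnt3a and 47 to 56 in rhWnt3aOSMI and was called lower too (-1.97, adjusted p = 0.0054).

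Zfp469, listed here as a lincRNA although its name is that of a zinc finger gene, had 200, 168 and 145 counts in Veh, 188, 121 and 192 with rhWnt3a, and 67, 64 and 88 in rhWnt3aOSMI (-1.21 ± 0.25 against rhWnt3a, adjusted p = 0.0277). Gm20735 and A830019P07Rik likewise were called lower against both other groups, with 9 to 12 and 8 to 11 counts in rhWnt3aOSMI. E330013P04Rik had 102, 103 and 126 counts with rhWnt3a and 12, 27 and 52 in rhWnt3aOSMI (-1.88 ± 0.40, adjusted p = 0.0282).

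Neat1 had 11922, 13152 and 12031 counts in Veh, 10738, 11919 and 10434 with rhWnt3a, and 17142, 16277 and 15949 in rhWnt3aOSMI. The OSMI libraries were above all others, and the rise from rhWnt3a, 0.57 ± 0.14, had an adjusted p of 0.0484. Gm17586, head-to-head with Mafg, a gene of a small Maf transcription factor, had 101, 122 and 87 counts with rhWnt3a and 186, 250 and 194 in rhWnt3aOSMI (1.01 ± 0.23, adjusted p = 0.0374). Mafg had 0.49 with an adjusted p of 0.0549. Gm44710 shares 40.1% of its 471 exonic bases with Med29 and Zfp36 and rose by 1.67 ± 0.27 (adjusted p = 0.00992). Gm37422, which overlaps Smyd2 in antisense over 4161 of its 4718 bases, rose by 0.76 ± 0.18.

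None of these 13 calls held in all 9 fits that left out 1 library, where 3 to 14 members were called. Brip1os was lost without rhWnt3aOSMI replicate 1 and Gm44710 without rhWnt3a replicate 3 (adjusted p = 0.0557 and 0.0531), and Gm28875 without rhWnt3a replicate 1 or 3 (0.0875 at most). The adjusted p of Neat1 ran from 0.0415 to 0.171, that of Snhg18 from 0.0309 to 0.0941 and that of A830082K12Rik from 0.0399 to 0.143. Only 8 members were called without Veh replicate 1, 4 without rhWnt3a replicate 2, and 3 without Veh replicate 2, rhWnt3a replicate 1 or 3, or rhWnt3aOSMI replicate 1 or 2. A fit of the 6 libraries of this comparison called 3. The fit without the 3 libraries that stood apart called 52, where treatment may be mixed with the axis.

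**Figure D3:**
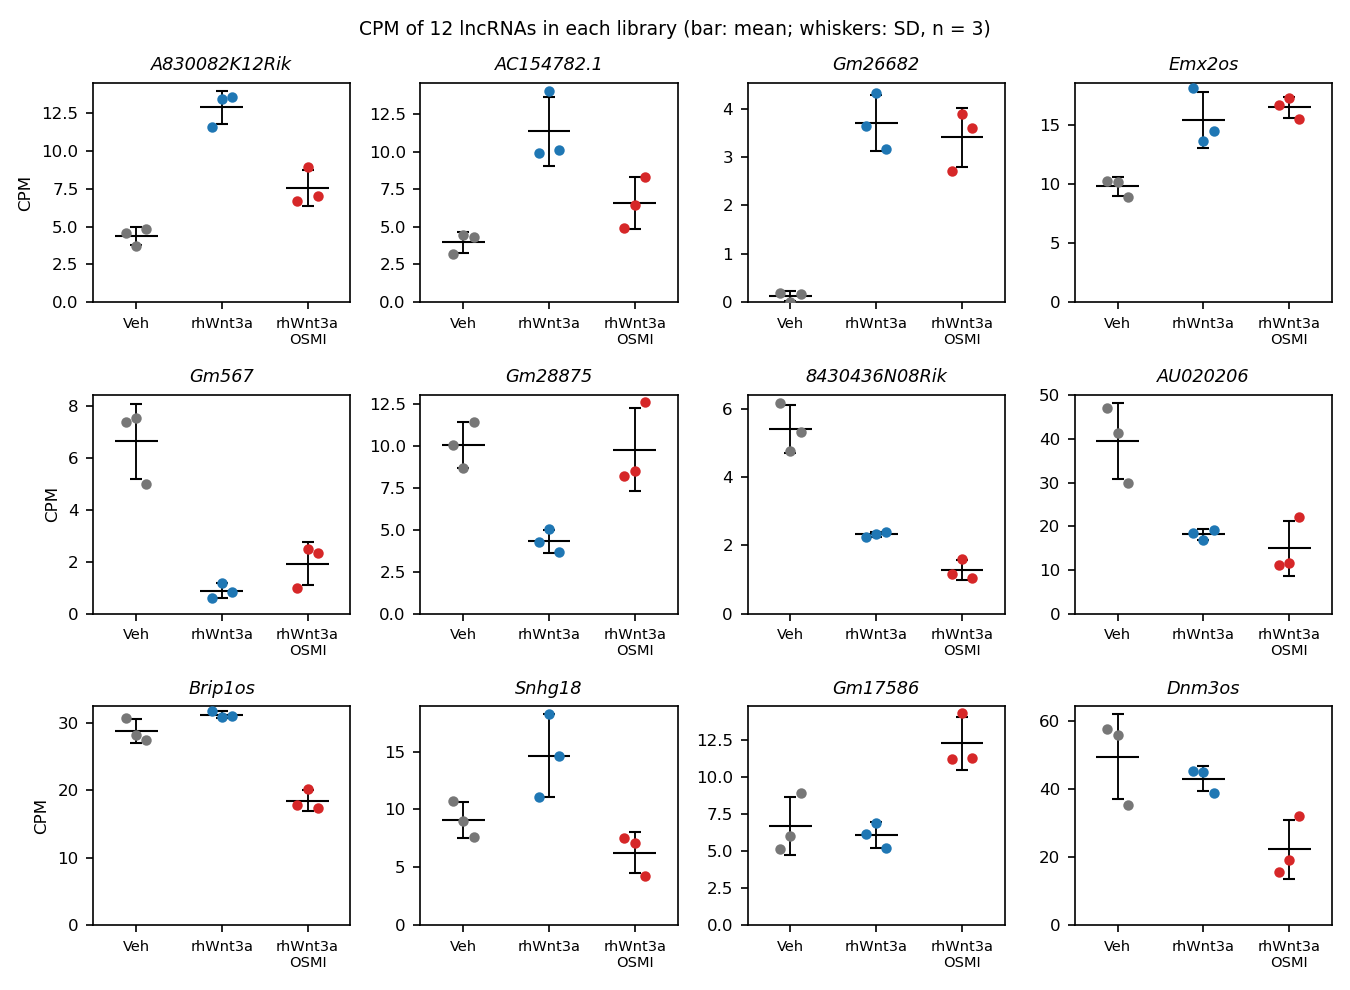
CPM (scaled by TMM) of 12 members in each library of Veh, rhWnt3a and rhWnt3aOSMI, with the mean as a horizontal bar and the SD of 3 libraries as whiskers. A830082K12Rik and AC154782.1 are highest with rhWnt3a, Gm26682 and Emx2os are high in both treated groups, Gm567 and 8430436N08Rik are low in both, and Brip1os, Snhg18 and Dnm3os are lowest in rhWnt3aOSMI.

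The comparison of rhWnt3aOSMI with Veh gives the joint change. Malat1, Gm38403, Gm12022 and Gm43597 rose, Dnm3os, AU020206, 8430436N08Rik and Gm34759 fell, and Gm26682, Gm567 and A530020G20Rik were called in the direction they had with rhWnt3a alone. Of the 361 members 33 were called (9.14%), 18 higher and 15 lower, where 14.2% of all tested genes were called, 4.84% higher and 9.34% lower, and 15.6% of protein-coding genes. The libraries did not overlap for 124 members (34.3%), against 38.8% of all tested genes. The median log2 fold change was 0.23 over the members and -0.01 over all tested genes.

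Malat1 had 19478, 17218 and 7461 counts in Veh, 26587, 12110 and 25279 with rhWnt3a, and 35839, 42076 and 43229 in rhWnt3aOSMI. All OSMI libraries exceeded all others, and the libraries that stood apart in Veh and rhWnt3a were the lowest of their groups. The rise over Veh was 1.39 ± 0.40 (adjusted p = 0.0435). It was 0.96 without the 3 libraries that stood apart, where treatment may be mixed with the axis. The log2 ratio of mean CPM was 1.14 for rhWnt3aOSMI replicate 3 alone against Veh replicates 1 and 2. For rhWnt3aOSMI replicates 1 and 2 against Veh replicate 3 alone, the ratio was 2.44. Xist had 25617, 24472 and 12587 counts in Veh, 41326, 16680 and 37746 with rhWnt3a, and 32138, 35698 and 37698 in rhWnt3aOSMI. Its lowest values were in the same 2 libraries, and it was not called in any comparison (0.69 ± 0.38 against Veh, adjusted p = 0.249).

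Dnm3os, the carrier of miR-199a and miR-214, had 941, 875 and 621 counts in Veh, 741, 792 and 647 with rhWnt3a, and 255, 335 and 549 in rhWnt3aOSMI. The OSMI libraries were below the other 6, although rhWnt3aOSMI replicate 3 came close to them. The log2 fold change was -1.15 ± 0.27 against Veh (adjusted p = 0.0195) and -0.95 ± 0.27 against rhWnt3a (adjusted p = 0.08). The microRNAs themselves were not measured by these poly-A selected libraries.

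AU020206 had 182, 201 and 380 counts in rhWnt3aOSMI, all below the Veh libraries (-1.40 ± 0.27, adjusted p = 0.00754). 8430436N08Rik, with 19, 28 and 18 counts, was lower still than with rhWnt3a, at -2.09 ± 0.24 against Veh (adjusted p = 0.000435), although its step from rhWnt3a was not called (-0.87, adjusted p = 0.074). Tox, its neighbour, had 109 to 187 counts in Veh, 20 to 37 with rhWnt3a and 5 to 24 in rhWnt3aOSMI. Gm34759, A330074K22Rik, Gm4544, Gm14005, Gm32857 and AI115009 fell by 1.98, 1.85, 1.58, 1.45, 1.28 and 1.16.

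Gm38403, an intergenic gene 50172 bases from the kinase gene Dyrk2, had 97, 115 and 108 counts in Veh, 159, 115 and 160 with rhWnt3a, and 213, 269 and 209 in rhWnt3aOSMI (1.06 ± 0.20 against Veh, adjusted p = 0.006). The OSMI libraries were the highest of the 9. Gm12022, whose nearest coding gene is the homeobox gene Meis1 at 386562 bases, had 18, 21 and 8 counts in Veh and 70, 101 and 85 in rhWnt3aOSMI (2.38 ± 0.56, adjusted p = 0.0189). With rhWnt3a it had 84, 19 and 83, so the library that stood apart in that group overlapped Veh. 3010003L21Rik, antisense to the Sin3-HDAC subunit gene Sinhcaf, had 8, 1 and 17 counts in Veh and 39, 26 and 44 in rhWnt3aOSMI (2.04 ± 0.57), and Sinhcaf was called higher as well (1.13, adjusted p = 0.0165).

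Of the 33 calls 10 held in all 9 fits that left out 1 library (Brip1os, AU020206, Emx2os, Gm38403, Zfp469, Gm567, 8430436N08Rik, Gm26682, Gm20735 and A530020G20Rik), and these fits called 14 to 44 members. The adjusted p reached at most 0.0885 for Malat1, 0.0867 for Dnm3os, 0.0577 for Gm12022 and 0.109 for 3010003L21Rik. The lowest counts were 14 without Veh replicate 1, 15 without rhWnt3aOSMI replicate 1 or 2, and 16 without Veh replicate 2. Without the 3 libraries that stood apart 77 were called, and there too treatment may be mixed with the axis.

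Over the 3 comparisons 50 members were called at least once and 311 never. Each comparison called a smaller share of the members than of all tested genes: 5.54% against 8.78%, 3.6% against 4.74%, and 9.14% against 14.2%. The share of all tested genes called in at least 1 comparison was not computed. Gm26682, Gm17173 and Emx2os were called higher in both treated groups against Veh, and Gm567, AU020206, 8430436N08Rik and A530020G20Rik lower in both. These comparisons share the Veh libraries. Brip1os, Zfp469, A830019P07Rik and Gm20735 were called lower in rhWnt3aOSMI against both other groups, and Gm17586 and Gm44710 higher.

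By role, 6 of the 26 distinct list members (23.1%) were called at least once, namely Snhg18, Dnm3os, Neat1, Malat1, Emx2os and Bvht, beside 50 of all 361 members (13.9%). The lists were chosen with earlier results of these data known, and this difference was not tested. The same share over all tested genes was not computed. Of the calls of these 6, only Emx2os in rhWnt3aOSMI against Veh held in all 9 fits that left out 1 library. Of 21 listed small nucleolar RNA hosts 5 were members, most of the others, such as Gas5, having another biotype in the table. Their median log2 fold change was 0.69 for rhWnt3a against Veh and -0.94 for rhWnt3aOSMI against rhWnt3a, beside 0.04 and -0.01 over all tested genes, and Snhg18 alone was called, in the second. Snhg12, which holds 5 small nucleolar RNAs, had 270, 348 and 495 counts in Veh, 536, 855 and 542 with rhWnt3a, and 365, 443 and 201 in rhWnt3aOSMI. Its rhWnt3a libraries were above all others, with 0.77 ± 0.30 (adjusted p = 0.175) against Veh and -0.94 ± 0.30 (adjusted p = 0.107) for the second step. Snhg6 and Epb41l4aos had log2 fold changes of 0.56 and 0.75, then -0.75 and -1.16, and Snhg20 -0.06 and 0.29, none of them called.

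Of 10 listed nuclear or chromatin-bound RNAs 6 were members, with medians of 0.27, 0.26 and 0.48 in the 3 comparisons, in the order used above, and with Neat1 and Malat1 called once each. Tug1 had means of 159 ± 9.2, 177 ± 15 and 173 ± 10 CPM (SD, n = 3), and Kcnq1ot1, an imprinted antisense RNA of Kcnq1, had 27.2 ± 10, 30.2 ± 11 and 39.9 ± 3.2 CPM. 2900097C17Rik had 198 ± 6.3, 257 ± 7.7 and 264 ± 22 CPM, with an adjusted p of 0.0409 for rhWnt3aOSMI against Veh but a log2 fold change of 0.42, under the threshold. Of the X inactivation centre, Xist, Jpx and Ftx were members and none was called, Ftx having 16.9 ± 2.6, 17.1 ± 0.82 and 13.3 ± 1.3 CPM.

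Of 16 listed microRNA hosts 4 were members, and only Dnm3os was called. Mir17hg, the carrier of the miR-17 to miR-92a cluster, had 40, 61 and 116 counts in Veh, 79, 127 and 70 with rhWnt3a, and 101, 104 and 99 in rhWnt3aOSMI, with overlapping groups. Mir155hg had 16, 7 and 15 counts in Veh and 27, 35 and 25 with rhWnt3a, without overlap, but missed the threshold (1.16 ± 0.36, adjusted p = 0.0812). Of 22 listed RNAs of homeobox and developmental loci 6 were members, Emx2os and Dnm3os being called, while Hotair, Hotairm1 and Dlx1as had group means of 0.974 to 2.33 CPM without a call. Of 9 listed RNAs of p53, MYC and growth loci 6 were members, with Bvht called. Pvt1, downstream of Myc, had 11.4 ± 3.1, 11.7 ± 0.58 and 14.4 ± 1.8 CPM, and Trp53cor1, a p53 target beside Cdkn1a, had 21, 17 and 3 counts in Veh and 32, 34 and 37 in rhWnt3aOSMI (1.26 ± 0.58, adjusted p = 0.172). Of 13 listed imprinted RNAs Airn and Kcnq1ot1 were members, and neither was called.

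The change of a member was compared with that of its coding neighbour within each kind of position, as a description across genes, which are not independent replicates and, where exons overlap, can share reads. For rhWnt3a against Veh, Spearman's rho was 0.46 over 92 head-to-head pairs, 0.46 over 109 antisense overlaps and 0.14 over 97 intergenic pairs. For rhWnt3aOSMI against rhWnt3a it was 0.25, 0.35 and 0.15 in the same order. Of the 3 head-to-head members called with rhWnt3a, 1 had a neighbour called the same way, as had 2 of 2 antisense-overlapping members with a tested neighbour (A830082K12Rik with Nr2f1, Gm26762 with Gpi1) and 3 of 12 intergenic members. Of all tested neighbours, 3 of 92, 8 of 109 and 10 of 97 were called in that comparison. In rhWnt3aOSMI against rhWnt3a a called member had a neighbour called the same way in 1 of 4 head-to-head, 0 of 3 antisense-overlapping and 0 of 3 intergenic cases (3 of 92, 7 of 109 and 2 of 97 neighbours called). In rhWnt3aOSMI against Veh it was 3 of 7, 2 of 7 and 3 of 12 (9 of 92, 11 of 109 and 14 of 97 called).

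**Figure D4:**
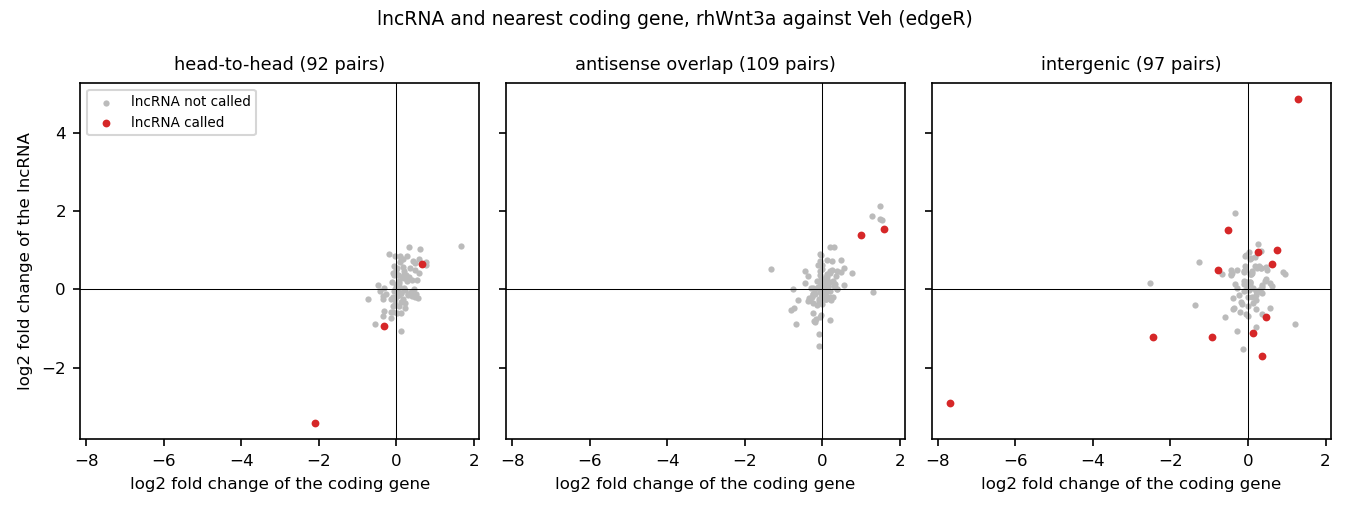
Log2 fold change of each member against that of its coding neighbour for rhWnt3a against Veh (edgeR), split by position, with members that were called in red. Points run along the diagonal more in the 92 head-to-head and 109 antisense-overlap pairs than in the 97 intergenic pairs, and the point at the far left is Gm567 with Emcn, whose place depends on the prior count because Emcn was listed at 0 with rhWnt3a.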

How the data were processed

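RNA of 9 ST2 libraries was poly-T selected and sequenced, and the authors deposited 1 table. Its counts are whole reads per gene, left by the authors without normalization, and its deposited FPKM values are scaled by gene length and library. It also holds the authors' fold changes and p-values, not used here. Submitters' processing notes name CASAVA, fastp, HISAT2 2.0.5, featureCounts 1.5.0-p3 and mm10. The strand setting is not given in the sources used here.

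Counts were tested with edgeR 4.0.16 in R 4.3.3 (filterByExpr with minimum count 10, TMM, glmQLFit on 3 groups, two-sided glmQLFTest), after a check on simulated data. The simulated check changed only well-counted genes and held no libraries that stood apart, so it does not cover calls of rare members. The common dispersion was 0.0452. The CPM that chose the members used column sums, and group levels used TMM. DESeq2 1.42.0, other filters and scalings, a replicate block and fits without single libraries were alternatives. Antisense and the other positions came from the coordinates of the deposited table. Exon sharing and copies (BLAST 2.17.0, 97% identity over 100 bases) came from GENCODE M21. All 361 members were found there, 350 with the same start and end. RefSeq GRCm38.p6 gave sequences.

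Named genes were list members, the 8 largest non-overlapping rises and falls per comparison, the 5 most abundant members and the coding neighbours. Called members outside this rule were named after their values were seen. The members and lists were chosen with earlier results of these data known.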

Additional observations from a re-analysis of the deposited data

How the results depend on the processing

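The number of members called for rhWnt3a against Veh, rhWnt3aOSMI against rhWnt3a and rhWnt3aOSMI against Veh was 20, 13 and 33. With an unadjusted p it was 63, 60 and 80, and with DESeq2 and an unadjusted p (added after the data were seen) 62, 62 and 74. Without the 3 libraries that stood apart it was 68, 52 and 77. The last 2 set libraries on opposite sides of their own groups' means against each other, so treatment may be mixed with the axis there. Without a count filter the first 2 were 31 and 26, DESeq2 called 23 in the second, a fit of 6 libraries called 3 in the second, and a log2 fold change above 1 left 12 in the first. Leaving out 1 library gave 9 to 25, 3 to 14 and 14 to 44. The causes of these differences were not tested. RLE scaling and a minimum of 10 counts in every library kept each count within 1.5 times. So did, added later, leaving out members with over 25% of exonic bases shared or over 10% near-identical elsewhere. That set of 282 still held members with less sharing. No named member changed direction in any comparison where it was called.

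With the replicate block, 8, 2 and 15 were called. Same-numbered libraries did not deviate together (correlations of their deviations from -0.49 to 0.44), so the numbers were not taken to pair the libraries.

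Of the 361 members 271 had a mean below 5 CPM, and the smallest detectable change at that level was not tested. Reads shared with overlapping genes cannot be separated, and the OSMI effect without rhWnt3a was not analysed here.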

Other observations

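Several members held other small RNAs on their own strand. RefSeq placed 43 mature microRNAs inside 10 members, in a search that left out the members on chromosome 18. Among them were let-7d within 6720427I07Rik and miR-31 within AL805899.1, and neither of these carriers was called in any comparison. By GENCODE M21, which covered all chromosomes, 16 members held a microRNA gene on their own strand. Veh and rhWnt3a libraries were also compared by whether they stood apart in their group, a split read from the data. The log2 ratio of mean CPM for rhWnt3a replicates 1 and 3 against Veh replicates 1 and 2 was 1.58 for A830082K12Rik. It was -3.20 for Gm567. For rhWnt3a replicate 2 against Veh replicate 3, which is 1 library against 1, the ratios were 1.45 and -1.97.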
